A study of Mus musculus with 96 samples.

Results

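The genes described here are 10 targets and brakes of FGF and ERK signalling in mouse embryonic stem cells (ESCs): the ERK phosphatases Dusp4, Dusp5 and Dusp6, the Sprouty genes Spry1, Spry2 and Spry4, their relative Spred1, the ETS factors Etv4 and Etv5, and the immediate early factor Egr1. They were chosen by symbol, mapped to the Ensembl identifiers of the count tables, and make up 10 of 37620 genes listed in each of 7 RNA-seq tables. All 10 passed the filter on low counts in all 7 tables, with raw counts per sample from 122 to 27760. The series studies RYBP, a Polycomb protein, in ESCs, and each table compares 2 treated with 2 control samples.

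The 7 comparisons were as follows. In the Rybp-floxed line R7.15, Rybp-/- ESCs after 5 µM 4-OHT for 4 days were compared with Rybp+/+ ESCs labelled as control, so the groups differ in the drug as well as in the gene. In the R1 line, shRybp and shWdr5 ESCs were each compared with the same shEV (empty vector) samples, so these comparisons share their controls. In the rTRS line, labelled with a DOX-induced Rybp_Stat3 integration, DOX was compared with NTC. A DOX column of this comparison is headed S5-DOX rather than rTRS-DOX, and taking it as an rTRS sample was an inference. In R1, a TF-AA mutation, which the labels do not define further, was compared with WT ESCs. In R7.15 cells of the genotype RYBPfl/fl Rosa26::CreERT2, all given 4-OHT, a RYBP carrying a 21aa deletion (RYBP phase disruption) was compared with overexpressed WT RYBP. In the J1 line Tet on.RYBP, DOX was compared with vehicle. Peak lists from chromatin immunoprecipitation (ChIP-seq) were used for Rybp+/+ and Rybp-/- ESCs, for the DOX-induced Rybp_Stat3 line with and without DOX, and, for RING1B, for R1 ESCs with an shRNA against Stat3 (shStat3) and their shEV control. The labels do not say whether the samples of a group were separate cultures, so the p-values measure the spread between these samples, which may be technical.

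In ESCs, FGF4 acting through FGF receptors, the adaptors FRS2 and GRB2 and the RAS-RAF-MEK cascade activates ERK, which pushes the cells toward lineage commitment, while LIF acting through STAT3 supports self-renewal. ERK induces its own inhibitors: DUSP6 dephosphorylates ERK in the cytoplasm, DUSP4 and DUSP5 do so in the nucleus, and Sprouty and SPRED proteins damp signalling between the receptor and RAF. ETV4 and ETV5 are ETS transcription factors whose genes are induced with them, and EGR1 is made within minutes of ERK activation. The mRNAs of these genes are often read as a gauge of ERK output.

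Library totals over genes ran from 14512857 to 16354044 counts in the phase disruption table, the shallowest, and from 75496499 to 81049618 in the knockout table, the deepest. The targeted gene followed its label in 4 comparisons: Rybp mRNA was at 22.6% of control in Rybp-/-, at 42.0% in shRybp, Wdr5 mRNA was at 17.1% in shWdr5, and Rybp rose 3.77-fold on DOX in the J1 line. In the rTRS line it did not. Rybp stood at 113 and 111 CPM in NTC and at 102 and 99.8 CPM in the libraries labelled DOX, with an adjusted p of 0.076 by edgeR's quasi-likelihood test. Stat3 stood at 159 and 172 CPM in NTC and 191 and 189 CPM in those labelled DOX, 1.15-fold, with an adjusted p of 0.026. In the phase disruption table Rybp was high in all 4 samples but lower with the deletion, at 749 and 754 CPM with WT RYBP and 662 and 626 CPM in phase disruption (log2 -0.22, adjusted p = 6.8e-05), so these groups differ in the level of Rybp mRNA as well as in the deletion. These genes also moved outside their own comparisons. Wdr5 mRNA was at 71.3% of control in shRybp, and Rybp mRNA was at 147% in shWdr5. Wdr5 was at 90.6% in Rybp-/- and at 76.7% in the rTRS libraries labelled DOX. In phase disruption Wdr5 was at 84.7% and Stat3 at 83.2%. The Rybp and Wdr5 knockdowns are thus not changes of a single gene each. CPM is the usual library-scaled count, here with TMM scaling within a table, so the levels of different tables were scaled separately.

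3 stretches of sequence around the members are shown because a peak or a motif match of the data falls in them. All are in the mm9 build and read on the strand of the gene. The stretch upstream of Dusp6, at chr10:98724258-98724458 on the plus strand, holds the summit of a STAT3 peak and lies between genes in the GENCODE M1 annotation. The stretch upstream of Spry2, at chr14:106296748-106296948 on the minus strand, also lies between genes and holds the only STAT3 summit of the members with a STAT motif, TTCNNNGAA, within 100 bases. The stretch before Dusp5, at chr19:53603385-53603598 on the plus strand, ends 1 base before the annotated start of the gene and is the part of its RefSeq promoter that lies upstream. Capitals mark the STAT motif in the Spry2 stretch and the adjoining CArG boxes, the motif bound by serum response factor, in the Dusp5 stretch.
Dusp6 STAT3 summit: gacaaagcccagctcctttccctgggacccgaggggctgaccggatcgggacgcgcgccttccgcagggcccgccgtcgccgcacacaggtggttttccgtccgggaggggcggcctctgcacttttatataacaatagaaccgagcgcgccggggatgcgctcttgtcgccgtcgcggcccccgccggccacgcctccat
Spry2 STAT3 summit: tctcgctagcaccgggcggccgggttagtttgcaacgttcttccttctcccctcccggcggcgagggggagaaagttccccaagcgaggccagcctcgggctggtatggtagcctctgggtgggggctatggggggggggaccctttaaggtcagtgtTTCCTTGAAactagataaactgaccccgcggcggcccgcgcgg
Dusp5 promoter: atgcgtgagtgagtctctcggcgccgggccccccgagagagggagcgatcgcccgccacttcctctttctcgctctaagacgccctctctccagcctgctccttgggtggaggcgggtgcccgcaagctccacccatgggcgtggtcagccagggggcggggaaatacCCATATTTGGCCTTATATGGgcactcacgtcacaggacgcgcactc

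Promoters of 300 bases, from 250 before to 50 after the start, were matched in the RefSeq table (GRCm38.p6) for Dusp5, Dusp6, Spry1, Spry2, Etv5 (a pair of promoters) and Spred1, 7 promoters in all. Each of these 7 was found once in mm9. Searched on both strands, a CArG box was present in the promoter of Dusp5 alone among them, against 1.63% of the 32851 promoters in the table. The ETS core CCGGAA was present in Spry2 alone, against 14.9% of the table. TTCNNNGAA, the Capicua octamers TGAATGAA and TGAATGGA, and the AP-1 motif TGACTCA were in none of the 7, against 8.3%, 1.3%, 1.21% and 5.2% of the table. TTCNNNGAA was within 100 bases of the summit in 3.82% of the 30663 STAT3 peaks of the Tet.Rybp.Stat3 DOX+ list. These are matches of letters, and nothing about binding was read from their presence or absence.

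Per length of transcript, an ETS factor was the most abundant of the 10 genes in control ESCs of each table. Levels were compared between genes as RPKM, CPM divided by the length in kilobases given in the tables, which the RYBP induction table lacks. Etv5 ranked highest in 4 of 6 tables and Etv4 in the other 2. In Rybp+/+ ESCs the order was Etv5 at 74.6 RPKM, Spry2 at 55.4, Egr1 at 34.0, Dusp4 at 28.2, Etv4 at 26.1, Dusp6 at 21.2, Spry1 at 13.2, Spry4 at 11.7, Spred1 at 10.7 and Dusp5 at 8.31, and no neighbours in that order overlapped between the 2 samples. In shEV ESCs of the R1 line Etv4 was at 104 RPKM and Dusp4 was lowest, at 7.40. In rTRS NTC cells Etv5 was at 124 RPKM and Egr1 was lowest, at 3.24. In the separately scaled tables the control means of Egr1 ran from 14.6 CPM in rTRS NTC to 207 CPM in the WT.RYBP cells, and those of Dusp5 from 4.11 CPM on vehicle in the J1 line to 62.5 CPM in the WT.RYBP cells. An exon of Egr1 overlaps the antisense gene Gm17507 in GENCODE M1, and the strand setting of the counting is not given in the sources used here, so the reads of that overlap cannot be told apart.

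Over the 7 comparisons, 17 of the 70 tests of members rose, 33 fell and 20 did not pass an adjusted p of 0.05, where 20% of the 108895 tests of all genes rose and 19.6% fell. The Rybp and Wdr5 knockdowns were taken to share their shEV controls, so these 70 tests are not treated as independent. The direction in the rTRS line is that of the labels, which Rybp mRNA did not follow. With that comparison left out, a choice made after seeing the data, 12 of 60 tests rose and 29 fell, where 19.5% of the 92604 tests of all genes rose and 19.5% fell, and with its direction turned 16 of 70 rose and 34 fell. Spry4 passed in all 7, falling in 6 and rising in the knockout alone, or falling in 5 and rising in 2 with the rTRS direction turned. Dusp6 also passed in all 7, rising in 3 and falling in 4, or rising in 2 and falling in 5 with the rTRS direction turned. Of the 13126 genes tested in all 7 tables, 0.777% passed in all 7. Etv5 fell in 4 and rose in none, or fell in 3 and rose in 1 with the rTRS direction turned. Spred1 passed in 2. A large share of all genes passed the same test in most tables. That share is given at the start of each comparison, and the counts of members and of gene lists in the comparison are to be read against it.

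**Figure D1:**
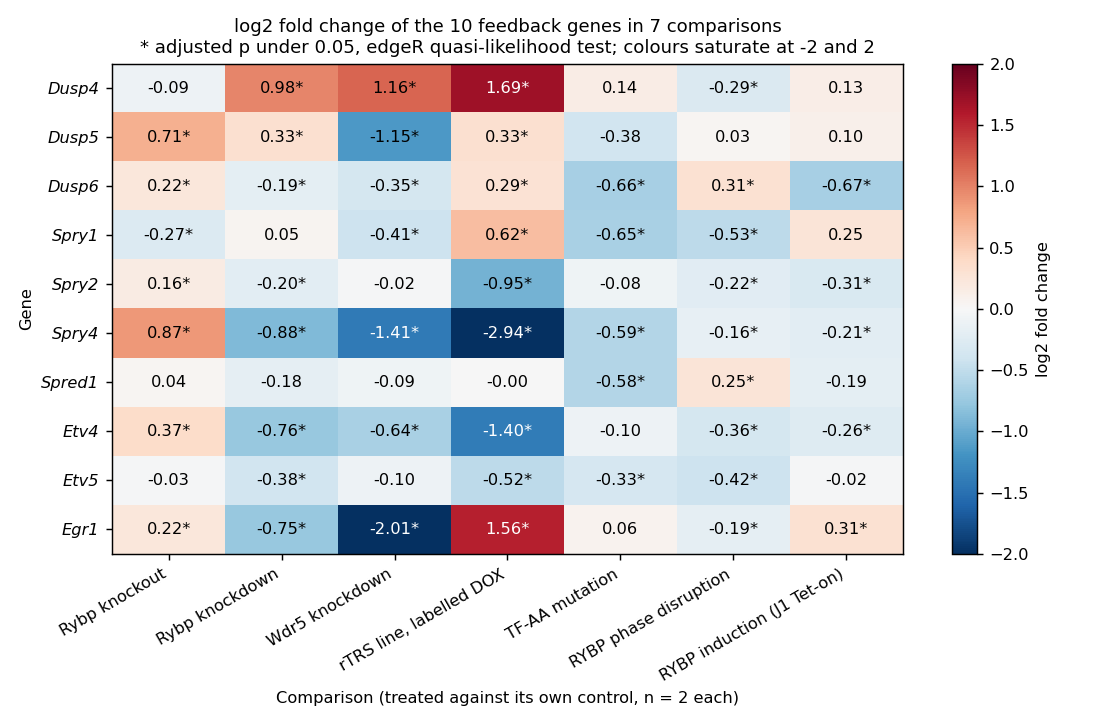
Each cell is the log2 fold change of a gene (rows) in a comparison (columns), treated against its own control with n = 2 each, and an asterisk marks an adjusted p under 0.05 by edgeR's quasi-likelihood test. Spry4 is red in the Rybp knockout, at 0.87, and blue in the other 6 columns, down to -2.94 in the rTRS line, while Dusp4 is red in the knockdowns and the rTRS line, from 0.98 to 1.69.

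The knockout comparison asked what changes when Rybp is deleted in R7.15 cells. Of the members, 6 rose, 1 fell and 3 did not pass, where 22.8% of 16955 genes tested rose and 22.7% fell. The 2 samples of a group did not overlap with those of the other for 9 of the 10 members and for 70.8% of these genes. Spry4, a cytoplasmic inhibitor of receptor tyrosine kinase signalling, was at 53.1 and 54.2 CPM in Rybp+/+ and at 91.3 and 105 CPM in Rybp-/-. Both knockout samples lay above both controls, and the rise was 1.83-fold (log2 0.87, SE 0.05, adjusted p = 7.6e-16 by edgeR's quasi-likelihood test, as for all adjusted p-values below).

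Dusp5, a nuclear phosphatase of ERK, was at 19.9 and 21.2 CPM in Rybp+/+ and at 35.5 and 31.7 CPM in Rybp-/-, a rise of 1.64-fold (log2 0.71, SE 0.07, adjusted p = 9.4e-11). Etv4 rose from 80.0 and 82.0 to 99.3 and 110 CPM, 1.29-fold (adjusted p = 1.5e-08). Smaller rises were called for Dusp6 (log2 0.22), Egr1 (0.22) and Spry2 (0.16). Spry1, the Sprouty gene that fell, was at 36.5 and 40.0 CPM in Rybp+/+ and 32.8 and 30.6 CPM in Rybp-/- (log2 -0.27, SE 0.06, adjusted p = 0.00026). Dusp4 (log2 -0.09, adjusted p = 0.067), Etv5 (-0.03, adjusted p = 0.56) and Spred1 (0.04, adjusted p = 0.48) did not pass.

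The median log2 fold change of the members was 0.19, against 0.0016 for all genes tested. In the same libraries the summed level of 9 fibroblast markers went from 63.1 to 63.8 CPM in Rybp+/+ to 132.9 to 137.5 CPM in Rybp-/-, with 8 of the 9 rising. The primitive endoderm markers went from 8.86 to 10.0 CPM to 17.0 to 18.3 CPM (3 of 7 rose), the trophectoderm markers from 10.0 to 10.8 CPM to 15.7 to 15.8 CPM (4 of 5 rose) and the pluripotency markers from 5456 to 5551 CPM to 5974 to 5987 CPM (5 of 8 rose and 2 fell). Mitochondrial genes took 1.36% and 1.44% of counts in Rybp+/+ and 1.67% and 1.68% in Rybp-/-. The part of these shifts in the member changes was not tested. In bulk samples, a change in the number of cells of a type and in the RNA per cell cannot be told apart.

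Of the fixed pathway lists, the FGF ligands had 1 rise and 4 falls among 9 tested in the knockout, the receptors and adaptors 1 and 4 among 14, and the RAS-RAF-MEK-ERK cascade 2 and 8 among 15. Other ERK feedback and immediate early genes had 9 rises and 1 fall among 19. Phlda1, an ERK-responsive gene, went from 7.86 and 8.47 to 21.3 and 20.2 CPM (log2 1.34, SE 0.08). Dusp2 (log2 1.08) and Fosl1 (1.05) rose from under 1 CPM. Fgf5, a marker of formative epiblast, fell from 3.41 and 4.14 to 1.60 and 0.974 CPM (log2 -1.55, SE 0.21). Sos2, a RAS exchange factor, fell by 0.73 on the log2 scale and Fgf15 by 0.71.

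The knockdown comparison lowered the same gene by shRNA in the R1 line. Here 2 members rose, 6 fell and 2 did not pass, where 26.8% of 16538 genes rose and 26% fell. Groups that did not overlap were found for 8 of the 10 members and 75.6% of these genes. Spry4 was at 149 and 156 CPM in shEV and at 82.2 and 83.7 CPM in shRybp, a fall to 54.3% of control (log2 -0.88, SE 0.05, adjusted p = 8.6e-11). Etv4 fell from 318 and 330 to 189 and 192 CPM (log2 -0.76, SE 0.05, adjusted p = 1.1e-10), and Egr1 from 53.2 and 55.9 to 33.7 and 31.1 CPM (log2 -0.75, SE 0.07, adjusted p = 4.1e-08).

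Etv5 also fell, from 342 and 358 to 271 and 268 CPM (log2 -0.38), and so did Spry2 (-0.20) and Dusp6 (-0.19). Dusp4, a nuclear ERK phosphatase, went the other way, from 20.0 and 20.6 to 41.4 and 38.6 CPM, 1.97-fold (log2 0.98, SE 0.08, adjusted p = 5.8e-09). Dusp5 rose from 20.7 and 20.5 to 24.3 and 27.4 CPM (log2 0.33, adjusted p = 0.004). Spry1 (log2 0.05, adjusted p = 0.67) and Spred1 (-0.18, adjusted p = 0.054) did not pass. The Dusp6 call was lost without shEV 2, shRybp 1 or shRybp 2 (adjusted p from 0.058 to 0.073) and the Dusp5 call without shRybp 2 (adjusted p = 0.083), while Spred1 passed without shEV 1 or shRybp 1. Spred1 also passed with the replicate block (adjusted p = 0.0039), RLE scaling (0.041), the edgeR exact test (0.047) and no filter on low counts (0.0097), so it missed the threshold in the fit reported here and in DESeq2.

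The fibroblast markers summed to 17.8 to 17.9 CPM in shEV and 33.4 to 34.5 CPM in shRybp, with 4 of 4 tested rising and Lum and Dcn at 0. The primitive endoderm markers summed to 16.4 to 19.9 CPM and to 33.1 to 35.3 CPM (5 of 7 rose and 1 fell), and the trophectoderm markers to 16.1 to 18.1 CPM and to 28.9 to 30.0 CPM (3 of 5 rose and 1 fell). The pluripotency markers summed to 7046 to 7138 CPM in shEV and 7253 to 7270 CPM in shRybp, with Nanog, Klf4, Tdgf1 and Dppa5a rising and Pou5f1, Zfp42 and Esrrb falling among 8. Pou5f1 was at 63.4% of control, Esrrb at 74.7% and Zfp42 at 76.8%, while Nanog was at 116.6%. The part of these shifts in the member changes was not tested. Among the cascade genes, 4 of 15 rose and 4 fell, and the falls held the largest values: Mapk3, which encodes ERK1, went from 71.3 and 77.9 to 26.8 and 26.5 CPM (log2 -1.48, SE 0.07), and Map2k1, which encodes MEK1, from 131 and 127 to 47.2 and 46.4 CPM (log2 -1.46, SE 0.05). The receptors and adaptors had 7 rises and 2 falls among 14, with all of Fgfr1, Fgfr2, Fgfr3 and Fgfr4 rising. The FGF ligands had 3 rises and 2 falls among 9, with Fgf17 falling from 48.5 and 50.4 to 21.5 and 20.1 CPM. The other feedback and early genes had 8 rises and 5 falls among 19. Jun, an AP-1 subunit, rose from 8.39 and 10.0 to 49.9 and 52.9 CPM (log2 2.48, SE 0.09), Phlda1 from 17.0 and 17.8 to 74.2 and 79.8 CPM (2.15), and Fosl1 by 2.04 on the log2 scale.

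Set side by side, the losses of Rybp by recombination and by shRNA gave opposite signs for 8 of the 10 members, where 41.8% of 15747 genes tested in both had opposite signs. Of these, 5 passed the test in both comparisons: Dusp6, Spry2, Spry4, Etv4 and Egr1 rose in the knockout and fell in the knockdown. Of all these genes 9.59% passed in both with opposite signs. Dusp5 was the only member that passed in both with the same sign, as 20.6% of all these genes did. The difference itself was tested as an interaction in a single edgeR quasi-likelihood fit over both tables. It passed for 10 of 10 members, where 40.5% of 18203 genes passed. The knockdown change minus the knockout change was -1.78 for Spry4 on the log2 scale (SE 0.08, adjusted p = 5.8e-14), -1.15 for Etv4 (SE 0.06), -0.99 for Egr1 (SE 0.07) and 1.05 for Dusp4 (SE 0.08). It was between -0.44 and -0.37 for Dusp5, Dusp6, Spry2 and Etv5, while Spry1 (0.30, adjusted p = 0.041) and Spred1 (-0.25, adjusted p = 0.043) passed narrowly and were lost in 5 and 6 of the 8 fits that left out a sample. The cell line, the method of loss and the 4-OHT treatment differ together between the comparisons and cannot be told apart.

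**Figure D2:**
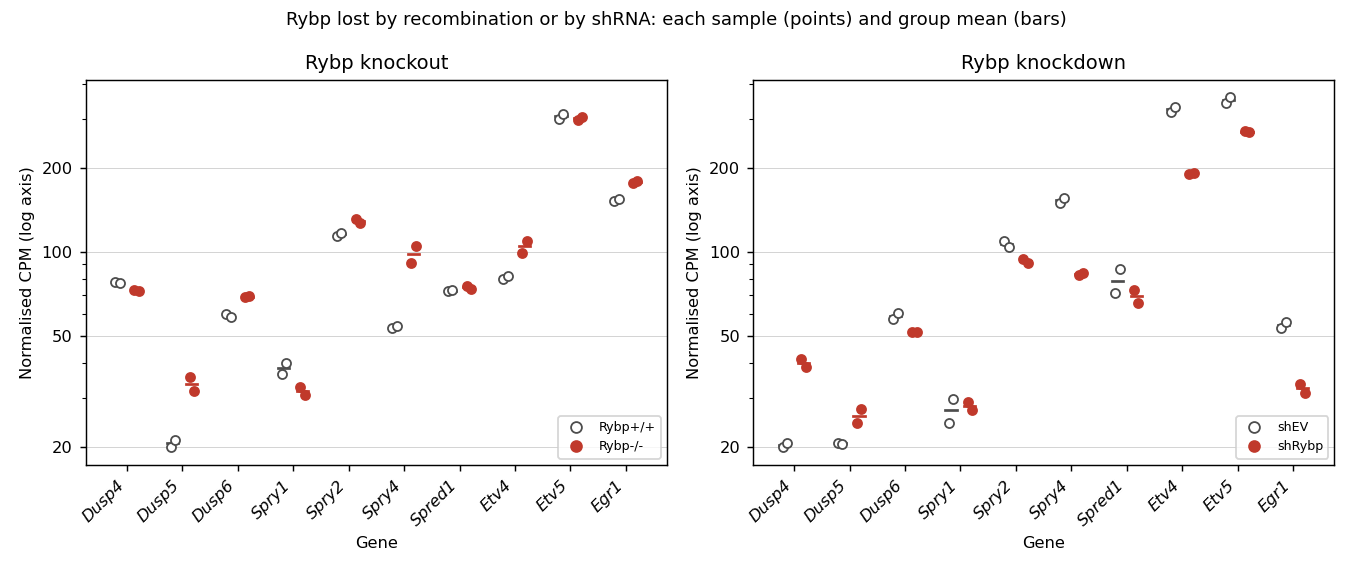
Normalised CPM on a log axis for each sample (points) with the group mean (bars), Rybp+/+ against Rybp-/- on the left and shEV against shRybp on the right; the tables were scaled separately. Spry4 moves up on the left, to 91.3 and 105 CPM, and down on the right, to 82.2 and 83.7 CPM.

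The Wdr5 knockdown asked the same of WDR5, a subunit of the complexes that methylate H3K4, in R1 cells. Its controls, headed EV, were taken as the same shEV samples, but their totals were lower here, at 21241931 and 19731613 counts. In the shRybp table they were 41697967 and 38961268. Rows that name no gene held 56.3% and 56.4% of their counts here and 22.8% and 22.1% there. Of the members, 1 rose, 6 fell and 3 did not pass, where 31.5% of 15143 genes rose and 31.5% fell. The groups were apart for 8 of the 10 members and 81% of these genes. Egr1 had the largest fall, from 50.8 and 53.4 CPM in shEV to 12.7 and 13.2 CPM in shWdr5, 24.8% of control (log2 -2.01, SE 0.08, adjusted p = 9.7e-16). Spry4 fell from 141 and 147 to 55.5 and 52.7 CPM, 37.6% of control (log2 -1.41, SE 0.06, adjusted p = 6.7e-16). Dusp5 fell from 19.5 and 19.3 to 9.81 and 7.63 CPM (log2 -1.15, SE 0.12, adjusted p = 1e-08).

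Etv4 fell from 299 and 310 to 194 and 196 CPM (log2 -0.64), Spry1 from 23.0 and 28.1 to 17.2 and 21.3 CPM (-0.41), and Dusp6 from 54.1 and 56.7 to 44.3 and 42.5 CPM (-0.35). Dusp4 was the only member that rose, from 18.8 and 19.5 to 43.3 and 42.2 CPM, 2.23-fold (log2 1.16, SE 0.08, adjusted p = 9.4e-12). Spry2 (log2 -0.02), Etv5 (-0.10) and Spred1 (-0.09) did not pass, at adjusted p from 0.058 to 0.81. Etv5 passed without shEV 1 and with the replicate block (adjusted p = 0.014), and Spred1 passed without shEV 1, at -0.22. Both shRNA comparisons were taken to share their controls, so their values are given side by side only. For Dusp5 they were 0.33 and -1.15 on the log2 scale, and for Dusp4 0.98 and 1.16.

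In the shWdr5 cells the pluripotency markers summed to 5844 to 5869 CPM, against 7028 to 7118 CPM in shEV, with 5 of 8 falling and 2 rising. The primitive endoderm markers went from 17.2 to 20.5 CPM to 36.1 to 36.6 CPM (4 of 7 rose and 1 fell) and the trophectoderm markers from 16.4 to 18.3 CPM to 29.0 to 32.5 CPM (2 of 4 rose and 1 fell). The fibroblast markers went from 18.3 to 18.5 CPM to 16.6 to 16.7 CPM (2 of 4 rose and 1 fell). The mitochondrial share of counts was 0.912% and 0.796% in shEV and 1.23% and 1.33% in shWdr5. The part of these shifts in the member changes was not tested. In the same cells the FGF ligands had 1 rise and 5 falls among 7 tested. Fgf17 fell from 45.5 and 47.3 to 6.40 and 7.10 CPM (log2 -2.78, SE 0.09) and Fgf15 from 7.62 and 7.69 to 1.82 and 1.49 CPM (log2 -2.20). The receptors and adaptors had 7 rises and 3 falls among 14, and Fgfr2 went from 4.96 and 4.66 to 23.9 and 23.1 CPM (log2 2.29, SE 0.12). In the cascade 7 of 15 rose and 3 fell, Mapk3 by 1.16 on the log2 scale. The other feedback and early genes had 6 rises and 7 falls among 18. Jun (log2 2.00) and Phlda1 (2.11) rose in this comparison too.

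The rTRS comparison gave the widest range of member changes. Of the members, 5 rose, 4 fell and 1 did not pass, where 23% of 16291 genes rose and 20.4% fell. The groups were apart for 9 of the 10 members and 71.3% of these genes. Spry4 was at 154 and 169 CPM in NTC and at 20.6 and 21.5 CPM in the libraries labelled DOX, 13.0% of control (log2 -2.94, SE 0.08, adjusted p = 4.3e-11). Etv4 fell from 142 and 130 to 54.0 and 48.9 CPM, 37.8% of control (log2 -1.40, SE 0.08, adjusted p = 2e-08). Spry2 fell from 89.0 and 91.2 to 46.5 and 46.8 CPM (log2 -0.95, SE 0.07), and Etv5 from 504 and 517 to 355 and 355 CPM (log2 -0.52).

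The rises were led by Dusp4, from 24.0 and 20.9 to 72.3 and 72.3 CPM, 3.22-fold (log2 1.69, SE 0.09, adjusted p = 1.3e-08). Egr1 rose from 14.5 and 14.6 to 47.0 and 38.6 CPM, 2.94-fold (log2 1.56, SE 0.11, adjusted p = 1.8e-07). Spry1 rose from 26.6 and 30.1 to 41.2 and 45.8 CPM (log2 0.62), so that the 3 Sprouty genes did not move together. Dusp5 (log2 0.33, adjusted p = 0.029) and Dusp6 (0.29, adjusted p = 0.017) rose less. Dusp5 lost its call without NTC 2 or DOX 2 (adjusted p = 0.17 and 0.15) and in DESeq2 (adjusted p = 0.051), and Dusp6 without NTC 1 or DOX 2, the latter at an adjusted p of 0.2. Spred1 did not pass (log2 -0.0043, SE 0.07).

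In these libraries 8 pluripotency markers summed to 5912 to 6086 CPM in NTC and 3605 to 3746 CPM in those labelled DOX, with 6 of the 8 falling. The trophectoderm markers summed to 19.4 to 20.4 and to 85.3 to 88.5 CPM, with 4 of 4 tested rising. The primitive endoderm markers summed to 7.85 to 9.39 and to 21.1 to 21.6 CPM, a sum carried by Dab2, at 5.63 and 3.91 CPM in NTC and 18.8 and 17.9 CPM in those labelled DOX. Dab2 was the only riser of the 6 tested, Sox7 fell by 4.86 on the log2 scale, and the median of the list was -0.26. The fibroblast markers summed to 22.7 to 23.97 and to 22.3 to 28.2 CPM (1 of 3 tested rose and 1 fell). The part of these shifts in the member values was not tested. Among the FGF ligands, 2 rose and 4 fell of 8: Fgf8 went from 0.391 and 0.149 to 12.7 and 9.17 CPM, Fgf5 from 0.978 and 0.745 to 26.6 and 27.7 CPM, and Fgf4, the ligand ESCs make for themselves, fell from 223 and 225 to 93.2 and 91.5 CPM (log2 -1.28, SE 0.06). Fgf10 fell by 1.95 on the log2 scale and Etv1, an ETS relative of Etv4 and Etv5, by 1.24. Fosb, an AP-1 subunit, went from 0.235 and 0.0745 to 5.95 and 6.40 CPM. The receptors and adaptors had 7 rises and 1 fall among 14, the cascade 6 rises and 0 falls among 15, and the other feedback and early genes 8 rises and 4 falls among 17.

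**Figure D3:**
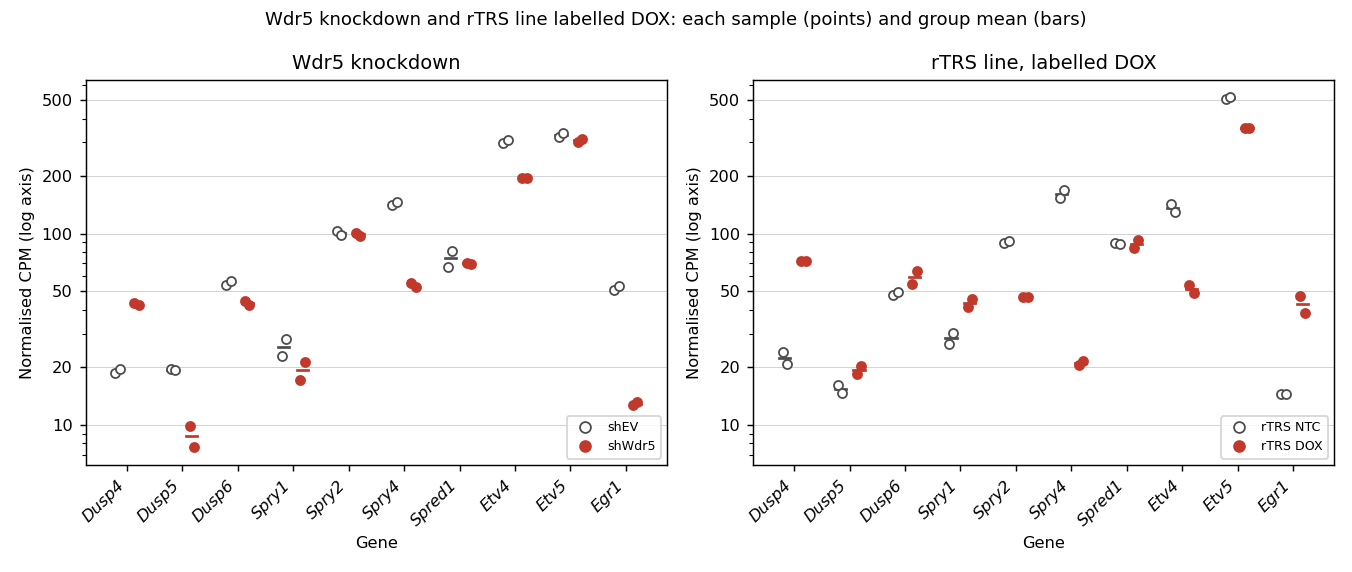
Normalised CPM on a log axis for each sample (points) with the group mean (bars), shEV against shWdr5 on the left and rTRS NTC against rTRS labelled DOX on the right; the tables were scaled separately. Egr1 is lower on the left, at 12.7 and 13.2 CPM, and higher on the right, at 47.0 and 38.6 CPM, while Spry4 is lower in both.

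With the TF-AA mutation no member rose, 5 fell and 5 did not pass, where 14.4% of 14456 genes rose and 16.1% fell. The groups did not overlap for 7 of the 10 members and 63.7% of these genes. Dusp6, the cytoplasmic ERK phosphatase, fell from 111 and 109 CPM in WT ESCs to 68.7 and 70.3 CPM (log2 -0.66, SE 0.08, adjusted p = 9.3e-07). Spry4 fell from 265 and 249 to 170 and 172 CPM (log2 -0.59, SE 0.08, adjusted p = 2.3e-06). Spry1 fell from 30.1 and 24.9 to 17.7 and 17.4 CPM (log2 -0.65). Spred1 fell from 136 and 166 to 97.2 and 105 CPM (log2 -0.58, SE 0.09, adjusted p = 2.4e-05). In the fits reported here this was the only fall called for Spred1. Alternative fits also called Spred1 lower in the Rybp knockdown and on RYBP induction, as given for those comparisons. Etv5 fell from 377 and 368 to 296 and 295 CPM (log2 -0.33), a call that was lost without either TF-AA sample (adjusted p = 0.055 and 0.053). Dusp5 (log2 -0.38, adjusted p = 0.087) did not pass; with the replicate block it stood at an adjusted p of 0.05, just under the threshold before rounding. Etv4, Spry2, Dusp4 and Egr1 lay between -0.10 and 0.14.

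In the same comparison 8 of 14 receptors and adaptors and 6 of 15 cascade genes fell and 0 rose in either list. Gab1, a docking protein of receptor signalling, went from 397 and 410 to 116 and 118 CPM (log2 -1.79, SE 0.08), Sos2 from 14.7 and 16.8 to 7.11 and 7.95 CPM (log2 -1.06), and Fgfr2 fell by 0.77 on the log2 scale. The FGF ligands had 1 rise and 0 falls among 6, the rise being Fgf3 at log2 1.14. 3 fibroblast markers tested all rose, with the list summing to 10.8 to 11.6 CPM in WT and 24.5 to 25.0 CPM in TF-AA while Col3a1, Lum and Dcn were at 0. The primitive endoderm markers summed to 11.4 to 11.7 CPM in WT and 21.0 to 21.4 CPM in TF-AA, with Sox7 and Dab2 rising among 5 tested. The pluripotency markers summed to 5481 to 5738 CPM in WT and 5621 to 5719 CPM in TF-AA (2 of 8 rose and 1 fell). The trophectoderm markers summed to 9.47 to 9.74 CPM and to 10.1 to 11.7 CPM (1 of 2 tested rose). Mitochondrial genes took 1.63% and 1.88% of counts in WT and 2.25% and 2.44% in TF-AA. The part of these shifts in the member falls was not tested. The other feedback and early genes had 4 rises and 4 falls among 17, with Fos rising from 8.31 and 10.1 to 20.3 and 21.4 CPM (log2 1.18) and Egr2 by 1.75 on the log2 scale.

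In RYBP phase disruption, 2 members rose, 7 fell and 1 did not pass, where 16.1% of 14575 genes rose and 17% fell. The groups did not overlap for 9 of the 10 members and 65% of these genes. All changes of members were small. Etv5 fell from 397 and 394 CPM with WT RYBP to 301 and 292 CPM, 75.0% of control (log2 -0.42, SE 0.04, adjusted p = 3.3e-09). Etv4 fell from 114 and 112 to 86.5 and 90.0 CPM (log2 -0.36, SE 0.06, adjusted p = 9.5e-06), and Spry1 from 23.2 and 22.1 to 16.6 and 14.8 CPM (log2 -0.53, SE 0.11, adjusted p = 4e-04). Dusp4 (log2 -0.29), Spry2 (-0.22), Egr1 (-0.19) and Spry4 (-0.16) were also called lower. The Spry4 call was lost when any of the 4 samples was left out (adjusted p from 0.053 to 0.18) in DESeq2 (adjusted p = 0.17) and with no filter on low counts (adjusted p = 0.083), and the Dusp4 and Egr1 calls were lost without WT.RYBP 2 (adjusted p = 0.055 and 0.17).

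Dusp6 rose from 56.1 and 60.1 to 70.3 and 73.7 CPM (log2 0.31, SE 0.07, adjusted p = 0.00062), and Spred1 from 136 and 128 to 159 and 156 CPM (log2 0.25, SE 0.05, adjusted p = 0.00026). Dusp5 overlapped between the groups (log2 0.03). The fibroblast markers summed to 490.7 to 504.3 CPM in WT.RYBP and to 393.1 to 426.7 CPM in phase disruption, with 4 of 9 falling. The trophectoderm markers summed to 19.8 to 23.1 CPM and to 47.9 to 49.7 CPM, with 3 of 4 tested rising. The pluripotency markers summed to 4032 to 4094 CPM and to 4226 to 4274 CPM, and of the 8 Nanog rose to 139.7% of control while Pou5f1 fell to 71.7% and Zfp42 to 79.8%. The primitive endoderm markers summed to 20.61 to 23.35 CPM and to 25.56 to 27.22 CPM (1 of 6 tested rose). Mitochondrial genes took 1.22% and 1.28% of counts with WT RYBP and 1.15% and 1.04% in phase disruption. The part of these shifts, and of the lower Rybp level, in the member differences was not tested. The FGF ligands had 1 rise and 3 falls among 8, the receptors and adaptors 4 and 3 among 14, the cascade 1 and 2 among 15, and the other feedback and early genes 4 and 3 among 19. Fgf1 rose from 1.57 and 1.25 to 8.89 and 10.3 CPM and Fgf5 fell from 5.66 and 5.12 to 0.543 and 0.807 CPM. Dusp9, a further ERK phosphatase, rose from 72.4 and 74.8 to 165 and 177 CPM (log2 1.22, SE 0.06). Flrt3 rose by 0.72 on the log2 scale, while Fgf17 fell by 0.99 and Egr2 by 0.57.

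RYBP induction in the J1 line changed few genes, 3.63% of 14937 rising and 2.39% falling, and among the members 1 rose, 4 fell and 5 did not pass. The 899 genes called became 406 without DOX 1, 409 without DOX 2, 1566 without vehicle 1 and 1467 without vehicle 2. The groups did not overlap for 8 of the 10 members and 48.1% of all genes tested. Dusp6 fell from 95.5 and 92.2 CPM on vehicle to 58.3 and 59.9 CPM on DOX, 63.0% of control (log2 -0.67, SE 0.07, adjusted p = 5.5e-08), and kept its call in each of the 4 fits that left out a sample. Spry2 fell from 155 and 142 to 119.1 and 120.9 CPM (log2 -0.31), Spry4 from 243 and 256 to 212 and 218 CPM (-0.21), and Etv4 from 122 and 118 to 97.6 and 103 CPM (-0.26). Egr1 rose from 74.8 and 72.7 to 94.6 and 88.5 CPM (log2 0.31, SE 0.07, adjusted p = 0.0045). Left with a single DOX sample, these calls were mostly lost: 1 member was called without DOX 1 and 2 without DOX 2, when the count over all genes was lower too, as given above. Spry2, Spry4 and Etv4 were lost in both, at adjusted p from 0.06 to 0.36, and Egr1 without DOX 1 (adjusted p = 0.24).

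Dusp4, Dusp5, Spry1, Etv5 and Spred1 did not pass, and Dusp5 was at 3.99 to 4.61 CPM in the 4 samples. Spred1 (log2 -0.19, adjusted p = 0.056) passed without vehicle 1, with the replicate block (adjusted p = 0.013), in the edgeR exact test (0.049) and with no filter on low counts (0.017). None of the 14 receptors and adaptors and none of the 15 cascade genes were called at an adjusted p of 0.05 by edgeR's quasi-likelihood test, while 2 and 1 had an unadjusted p under 0.05. Dusp1 rose from 28.9 and 24.5 to 33.7 and 34.4 CPM and Dusp9 from 39.1 and 31.4 to 45.4 and 43.0 CPM, and of 8 FGF ligands Fgf10 and Fgf17 fell. The primitive endoderm markers summed to 8.02 to 8.16 CPM on vehicle and 4.55 to 5.50 CPM on DOX, with 0 of 5 called and 2 at an unadjusted p under 0.05, and the pluripotency markers to 6260 to 6282 CPM and 6135 to 6236 CPM, with 1 of 8 rising. The trophectoderm markers (9.00 to 11.2 and 8.77 to 8.95 CPM) and fibroblast markers (7.77 to 8.74 and 5.73 to 7.72 CPM) had no call among 3 and 2 tested and 1 each at an unadjusted p under 0.05. Whether these values bear on the member changes was not tested.

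**Figure D4:**
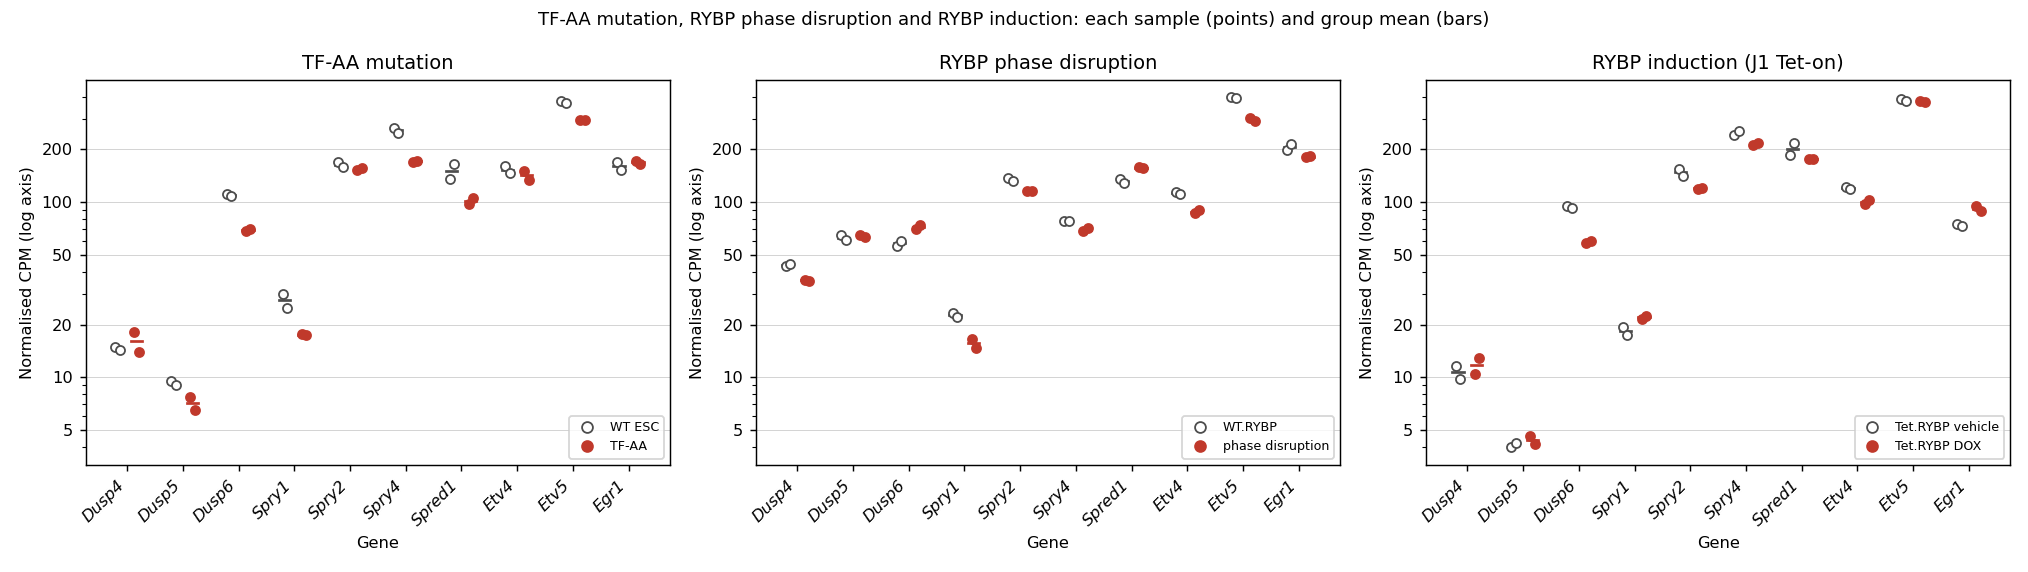
Normalised CPM on a log axis for each sample (points) with the group mean (bars) in the TF-AA mutation, RYBP phase disruption and RYBP induction tables, which were scaled separately. Dusp6 is lower with the TF-AA mutation, at 68.7 and 70.3 CPM, and on RYBP induction, at 58.3 and 59.9 CPM, and higher in phase disruption, at 70.3 and 73.7 CPM.

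The members did not share a single pattern over the comparisons. Likeness was measured as the root mean square difference of the 7 log2 fold changes, over 9177 other genes tested in all tables with a mean of at least 5 CPM in each. Of the 7 comparisons, 2 were taken to share controls. Among the members the nearest to Spry4 was Etv4, at 0.71, and the farthest was Dusp4, at 2.18, against a median of 1.35 over the other genes. Of non-members, Mras, which encodes a RAS-family GTPase, was nearest to Spry4 at 0.42, with log2 fold changes of 1.23 in the Rybp knockout, -0.81 and -1.25 in the Rybp and Wdr5 knockdowns, -2.32 in the rTRS line, -0.52 with the TF-AA mutation, -0.98 in phase disruption, where Spry4 was at -0.16, and -0.33 on RYBP induction. Enox1 (0.50) and Gm13230 (0.56) followed. For Dusp6, whose changes were smaller, the nearest were Inpp5a (0.23), Plbd2 (0.24) and Prr5 (0.24), and among the members Spred1 (0.25), against a median of 0.50. The other members compared lay above that median, from 0.52 for Etv5 to 1.36 for Spry4. Dusp5, with a mean under 5 CPM in the J1 line, was not among the members compared.

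At their promoters the 10 genes held H3K4me3, H3K27ac and WDR5 peaks in the deposited MACS2 peak lists, and RING1B peaks as well, as given below. In Rybp+/+ and Rybp-/- ESCs, H3K4me3, H3K27ac and WDR5 peaks lay within 2.5 kb of an annotated start of all 10 members, against 67.4% and 67.5%, 51% and 54.1%, and 46.4% and 48.8% of 22372 protein-coding genes. These shares count all such genes, expressed or not, while all 10 members passed the filter on low counts. Replicates had been merged before the peaks were called, so each value comes from a single list with no test, and the depth behind it is unknown. The H3K4me3 peaks had fold enrichments over background from 38.6 to 75.7 in Rybp+/+ and from 36.8 to 67.8 in Rybp-/-. The highest in Rybp+/+ was that of Spred1, 5747 bases wide at chr2:116944808-116950554.

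The H3K27ac peaks differed more among the members. In Rybp+/+, Dusp6 had a fold enrichment of 42.0 and Etv5 of 36.3, the latter in a single peak of 18453 bases at chr16:22424909-22443361, while Dusp5 had 4.65 and Spry1 7.68. In Rybp-/- the H3K27ac values were 25.3 for Dusp6 and 15.0 for Etv5, whose 3 peaks there covered 8651 bases, and 8.78 for Dusp5. In the WDR5 lists Etv5 stood highest of the members, with 15.8 in Rybp+/+ and 24.0 in Rybp-/-, at percentiles 93 and 95.7 of all peaks in their lists. The other 9 members lay between 4.49 and 8.57.

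STAT3 peaks at the members differed between lists that also differed in size. The R7.15 lists, each from a single sample, held 2363 STAT3 peaks in Rybp+/+ and 1917 in Rybp-/-, with peaks at 2 members (Dusp6 and Spred1) and at none, against 7.55% and 6.33% of genes. In the line with the DOX-induced Rybp_Stat3 integration, labelled R1 in the ChIP samples, the DOX- list held 2816 STAT3 peaks and the DOX+ list 30663. None of the members had a peak in DOX- and 10 of 10 had one in DOX+, where 8.85% and 56.9% of all genes had one.

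The DOX+ peaks with the highest fold enrichment at members were those of Spred1 (10.3) and Dusp6 (10.1). The Dusp6 peak, at chr10:98723831-98725028, has its summit at -1507 bases from the start, in the stretch printed above, and overlaps the Rybp+/+ peak at chr10:98724047-98724411. The other 8 members are shown in the map of fold enrichments.

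RING1B, the ubiquitin ligase of PRC1, had peaks at all 10 members in the DOX-, shEV and shStat3 lists and at 9 in DOX+, where Spry4 had none, against 54.2%, 45.4%, 41.1% and 41.5% of genes. The shEV and shStat3 lists each come from a single sample, and the DOX lists from 2 merged. Several of these peaks were weak: at a −log10 q of at least 5, peaks remained at 9 members in DOX-, 7 in shEV, 7 in shStat3 and 7 in DOX+, against 43.2%, 28.7%, 28.6% and 30.8% of genes. Dusp4 stood out among the members in these lists, with a single broad peak of 5958 to 6409 bases and fold enrichments of 34.7 in DOX-, 22.6 in DOX+, 43.1 in shEV and 27.8 in shStat3. Those of Dusp5 and Spry1 lay between 6.94 and 15.9, and those of Spry4, Etv4 and Etv5 between 2.54 and 6.50.

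**Figure D5:**
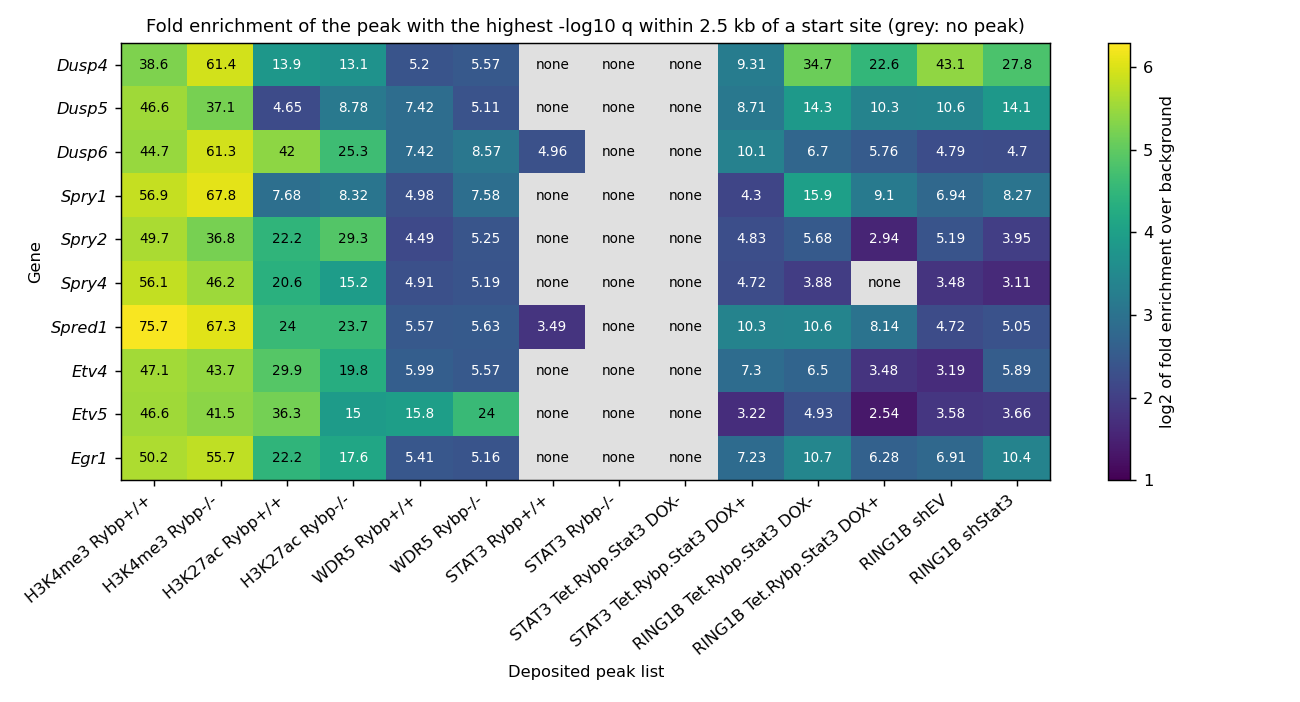
Fold enrichment over background of the peak with the highest -log10 q within 2.5 kb of a start site, for each gene (rows) and deposited list (columns), coloured by its log2; grey cells hold no peak. The STAT3 columns are empty but for Dusp6 and Spred1 in Rybp+/+ until DOX+, where all 10 genes hold a value from 3.22 to 10.3, and Dusp4 has the highest value in each of the 4 RING1B columns.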

How the data were processed

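RNA-seq counts of 26 samples in 7 tables were used, with 2 samples a group. Per the labels and the methods of the study, the authors trimmed reads with Trim Galore, aligned them to mm9 with STAR and made the deposited count tables with HTSeq; rows that name no gene, kept out of library sizes here, held 13.7% to 58.5% of counts where listed. Of 37620 identifiers, 37205 matched a GENCODE M1 symbol. Columns were mapped to samples by column name, table and sample title together. For S5-DOX_R2, the rTRS DOX column whose header does not name rTRS, and for the EV columns of the Wdr5 knockdown, this was an inference. Each table was fitted on its own with edgeR 4.0.16 (R 4.3.3): filterByExpr, TMM, glmQLFit and glmQLFTest, Benjamini-Hochberg over all genes tested, an adjusted p under 0.05. SE is the absolute log2 fold change divided by the square root of F. The procedure was tested on simulated data, where of 100 genes changed by log2 1 it recovered 77 (phase disruption table) to 98 (knockout table), and of 100 changed by log2 0.5 it recovered 53 (TF-AA table) to 79 (knockout table), with 1 to 14 false calls a table. Each simulation changed 200 genes of at least 1 CPM, fewer than were called in any table here. Its number of false calls therefore does not carry over to the calls in the data. Replicates differed by more than counting noise in all groups. Peaks were called by the authors with MACS2 on merged replicates or single samples, with a stated FDR of 0.01; the deposited fold enrichment (a ratio over background) and the −log10 q were used as given, and the lowest −log10 q per list ran from 1.01 to 1.38. A peak was assigned to a gene where at least 1 bp lay within 2.5 kb of an annotated start. Named from 4 pathway lists were up to 3 rises and 3 falls per comparison with the largest change among called genes whose groups did not overlap and whose mean was at least 1 CPM. The members, lists and tests were chosen with earlier results of these data known. Alternatives were DESeq2 1.42.0, the edgeR exact test, RLE scaling, no filter, a replicate block, a fold threshold and leaving out each sample, and for peaks a window of 1 kb, a −log10 q of at least 5, and a larger overlap.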

Additional observations from a re-analysis of the deposited data

Results flagged for a closer look

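All 10 members met the criterion that the change under loss of Rybp differed between the R1 line treated with shRNA and the R7.15 line after recombination, tested as an interaction in edgeR's quasi-likelihood fit over both tables. The knockdown change minus the knockout change, on the log2 scale with 2 samples a group, was -1.78 for Spry4, -1.15 for Etv4, -0.99 for Egr1, -0.44 for Dusp6, -0.41 for Dusp5, -0.39 for Spry2, -0.37 for Etv5 and -0.25 for Spred1. It was 1.05 for Dusp4 and 0.30 for Spry1. A share of 40.5% of all genes tested passed the same test, so a difference between these comparisons was common. Leaving out single samples removed the call for Spry1 in 5 of 8 fits (0.15 to 0.45) and for Spred1 in 6 of 8 (-0.39 to -0.10), and for no other member. Line, method and 4-OHT treatment cannot be told apart here.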

How the results depend on the processing

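Of the member fold changes and differences, 68 of 70 kept their side of the threshold in DESeq2, 68 of 70 in the exact test, 79 of 80 with RLE scaling, 77 of 80 without the filter, 76 of 80 with the replicate block and 321 of 360 when a sample was left out, of which 11 changed sign while passing in neither fit. With the replicate block the members called were 7 (knockout), 9 (Rybp knockdown), 8 (Wdr5 knockdown), 9 (rTRS), 6 (TF-AA), 9 (phase disruption) and 6 (RYBP induction), against 7, 8, 7, 9, 5, 9 and 5 without it, and of all genes 7724, 9110, 9865, 8559, 5525, 5172 and 1211, against 7720, 8721, 9547, 7070, 4412, 4814 and 899. The numbers were not taken as pairs, since the correlation of same-numbered deviations ran from -0.019 to 0.374 and the labels name no shared culture. Requiring also an absolute log2 fold change above 1 left, of members, 0 in the knockout, 0 in the Rybp knockdown, 4 in the Wdr5 knockdown, 4 in rTRS and 0 in each of the TF-AA, phase disruption and RYBP induction tables, and of all genes 1330 of 7720, 2088 of 8721, 2815 of 9547, 1953 of 7070, 1176 of 4412, 986 of 4814 and 135 of 899. DESeq2 called 2980 genes and 8 members in phase disruption, against 4814 genes and 9 members in the main fit. Leaving out a sample gave 2724 to 4767 genes in the TF-AA table, lowest without TF-AA 1, and 406 to 1566 genes and 1 to 6 members in RYBP induction, lowest without DOX 1. The sign of values that passed no test turned for Etv5 in the knockout (-0.061 to 0.0018), Spry1 in the Rybp knockdown (-0.095 to 0.19), Spry2 and Spred1 in the Wdr5 knockdown (-0.050 to 0.021 and -0.22 to 0.061), Spred1 in rTRS (-0.069 to 0.058), Dusp4 and Egr1 with TF-AA (-0.059 to 0.31 and -0.024 to 0.14), Dusp5 in phase disruption (-0.018 to 0.077) and Dusp4 in RYBP induction (-0.025 to 0.27); the cause was not tested. Spred1 in the Wdr5 knockdown passed at -0.22 without shEV 1. The STAT3 peaks at members in Rybp+/+ fell from 2 to 1 with a 1 kb window and to 1 at a −log10 q of at least 5, where the RING1B peaks fell from 10 to 9 (DOX-), from 10 to 7 (shEV and shStat3) and from 9 to 7 (DOX+). With 2 samples a group, leaving out 1 leaves an arm whose spread is assumed from the other.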
